A study of Mus musculus with 5 samples.

Results

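The circadian clock genes described here are Dbp, Tef, Hlf, Per1, Per2, Per3, Nr1d1, Nr1d2, Arntl and Ciart, 10 of the 18018 genes in the unsmoothed expression table, taken by symbol. Ciart was found under its older symbol Gm129, and the other members under their own. The table holds 454 hepatocytes from male C57BL/6J littermates, measured by Drop-seq, in which cells are caught in droplets and every captured RNA molecule receives a unique molecular identifier (UMI). HFD mice received a high fat diet for 12 weeks from 8 weeks of age (3 mice, 238 cells), and LFD mice received the regular chow diet that the labels call LFD over the same weeks (2 mice, 216 cells). The labels give no time of day of collection, which may differ between mice, and its part in the levels below was not tested.

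In the mammalian clock, ARNTL (also called BMAL1) pairs with CLOCK and activates genes through E-box sequences. The PER and CRY proteins and CIART repress that activity, and the nuclear receptors NR1D1 and NR1D2 (REV-ERB alpha and beta) repress Arntl through ROR elements. DBP, TEF and HLF are the PAR bZIP transcription factors, which carry the rhythm to outputs through D-box sequences and control detoxification genes in liver. Liver mRNA of these genes rises and falls over the day, with Arntl in near opposite phase to Dbp, Tef and Nr1d1.

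Promoter sequences of Tef, Per3, Ciart and Arntl are shown because they hold the 3 elements through which these loops act on their own members. RefSeq promoter windows (250 bases before to 50 after a transcription start, GRCm38.p6) were matched by symbol to 9 of the 10 members, with 12 windows in all. The motifs searched on both strands were the E-box CACGTG, the D-box TTATGTAA or TTACGTAA, and the ROR element core TAGGTCA, and no matches overlapped. The first 3 sequences below are the 250 bases before the start, the last is 30 bases around the match, each runs 5′ to 3′ on the strand of its gene, and capitals mark the motif.
Tef, chr15:81811164-81811413, plus strand: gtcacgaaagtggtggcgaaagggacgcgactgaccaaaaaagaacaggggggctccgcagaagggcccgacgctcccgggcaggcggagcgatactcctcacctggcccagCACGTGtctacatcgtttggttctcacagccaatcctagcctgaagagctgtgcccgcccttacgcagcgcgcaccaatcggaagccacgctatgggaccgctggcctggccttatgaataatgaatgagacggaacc
Per3, chr4:151044666-151044915, minus strand: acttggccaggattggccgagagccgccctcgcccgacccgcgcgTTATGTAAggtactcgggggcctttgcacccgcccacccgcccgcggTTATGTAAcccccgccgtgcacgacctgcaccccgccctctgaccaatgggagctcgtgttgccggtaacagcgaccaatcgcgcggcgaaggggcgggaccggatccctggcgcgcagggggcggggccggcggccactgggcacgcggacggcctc
Ciart, chr3:95882229-95882478, minus strand: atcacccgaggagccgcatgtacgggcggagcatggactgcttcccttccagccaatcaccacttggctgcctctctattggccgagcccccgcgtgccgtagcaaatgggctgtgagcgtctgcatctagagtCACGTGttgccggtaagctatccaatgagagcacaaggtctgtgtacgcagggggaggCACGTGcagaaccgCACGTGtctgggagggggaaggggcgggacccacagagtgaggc
Arntl, chr7:113207529-113207558, plus strand: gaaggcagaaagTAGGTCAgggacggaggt
Ciart, the repressor of the ARNTL and CLOCK pair, held 3 E-boxes, beginning 116, 58 and 44 bases before the start. The E-box of the Tef window shown began 138 bases before the start, the other Tef window also held 1, and so did 1 window of Per1. E-boxes were thus in 4 of 12 member windows and in 7.15% of all 32851 windows. Both D-boxes were in Per3, beginning 205 and 158 bases before the start, and a D-box was in 1.06% of all windows. The ROR core was in the Arntl window that begins at 113207261, beginning 30 bases after its start, and 2.61% of all windows held one. A match is a description of letters and says nothing about binding in these cells.

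All members are annotated as protein-coding. By GENCODE vM21 on build mm10 (GRCm38), Dbp lies at 7:45705088-45710203, Tef at 15:81802421-81826863 and Hlf at 11:90336536-90390895. Per1 lies at 11:69095217-69109960, Per2 at 1:91415982-91459324 and Per3 at 4:151003652-151044665. Nr1d1 lies at 11:98767932-98775333, Nr1d2 at 14:18204054-18239127, Arntl at 7:113207465-113314126 and Ciart at 3:95878503-95882251. Exons of Dbp share 539 bases with Sphk2 on the opposite strand, and those of Nr1d1 share 263 bases with Thra. No source used here says whether the authors counted by strand, so reads in those overlaps cannot be told apart. The table gave Sphk2 0, 12 and 3 UMIs in HFD mice 1 to 3, against 12 and 9 UMIs in LFD mice 1 and 2.

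Depth set what could be seen. HFD mice 1, 2 and 3 gave 5, 208 and 25 cells with 27903, 656803 and 58470 UMIs, and LFD mice 1 and 2 gave 132 and 84 cells with 446868 and 309050 UMIs. A count of 3 UMIs, taken as the limit that a count of 0 allows, corresponded to 107.5 CPM (UMIs scaled to a library total of 1000000) in HFD mouse 1 and to 4.57, 51.3, 6.71 and 9.71 CPM in HFD mice 2 and 3 and LFD mice 1 and 2. HFD mouse 1 stood apart, with 8.98% mitochondrial UMIs against 5.10 to 5.63% in the other mice, and with sinusoidal endothelial markers (11 genes) at 1505 CPM against 34.2 to 79.2 CPM. Of 25 hepatocyte markers, 23 in HFD mouse 1 and 25 in each other mouse were detected in over 50% of cells, and no cell barcode was shared between mice. The fits of diet over mice are therefore given with and without HFD mouse 1 for the members and for all genes. Other diet comparisons are over all 5 mice unless stated. Intervals for counts are exact Poisson or binomial 95% intervals and cover counting error only.

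The 10 members together had 353 of 1499094 UMIs. Tef had the most, 79 UMIs, and 2059 genes in the table had more. The order by total UMIs was Tef, Dbp (78), Hlf (59), Nr1d2 (50), Nr1d1 (32), Per3 (18), Per1 (17), Per2 (11), Arntl (8) and Ciart (1). These are molecules counted at 1 end, so they are not divided by gene length, and Tef and Dbp cannot be ranked by a difference of 1 UMI. Only Per1 and Per3 had UMIs in all 5 mice. Summed over the members, the level was 107.5, 180 and 496 CPM in HFD mice 1 to 3, against 273 and 262 CPM in LFD mice 1 and 2. The sum in HFD mouse 2 (interval 149 to 215) lay below those of both LFD mice, and that in HFD mouse 3 (332 to 712) above them, so the HFD mice spanned the LFD mice.

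**Figure D1:**
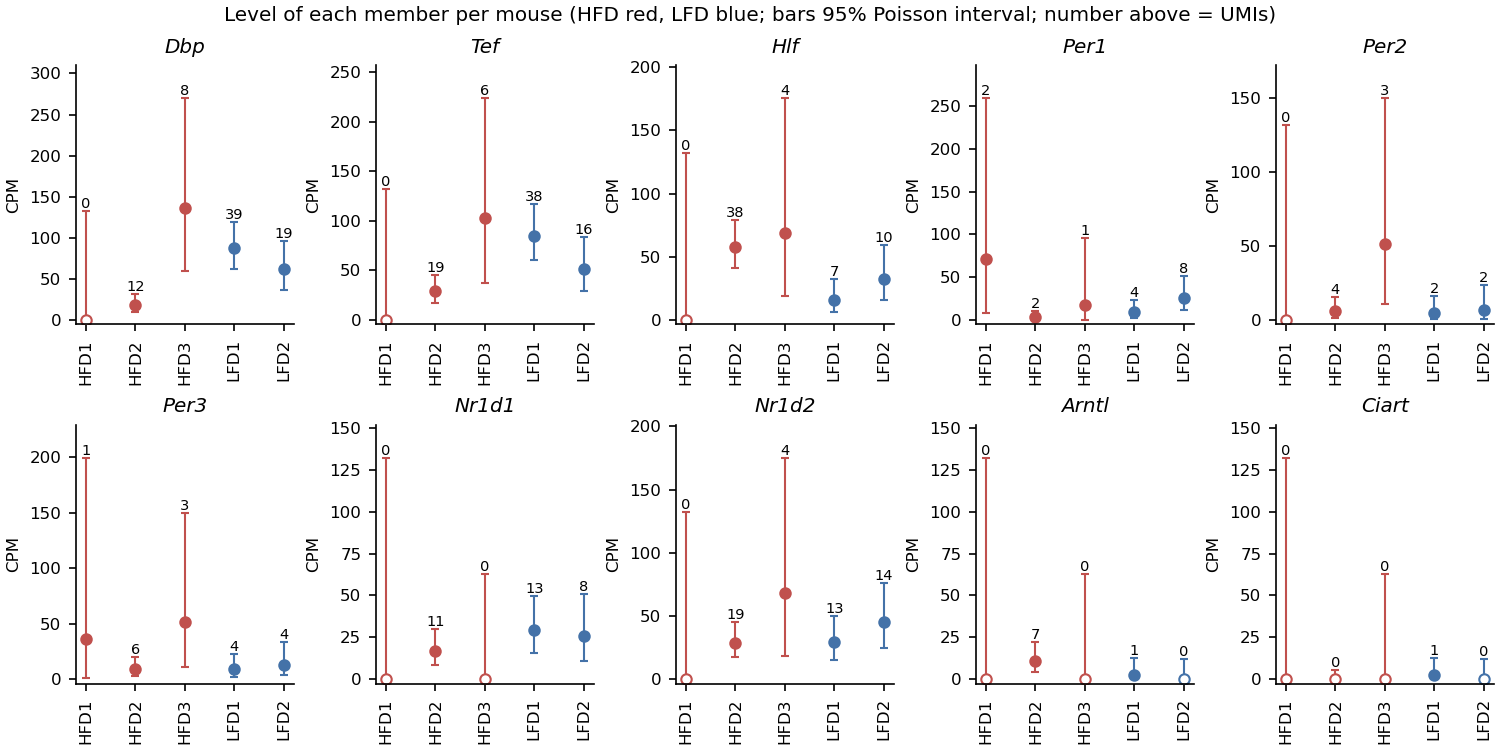
Level of each member in each mouse, in CPM, with HFD mice in red left of LFD mice in blue. Bars are exact 95% Poisson intervals, the number above each is the UMI count and open circles mark 0 UMIs; Dbp in HFD mouse 2 sits at 18.3 CPM, below HFD mouse 3 and both LFD mice.

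Of the PAR bZIP outputs, Dbp had 0, 12 and 8 UMIs in HFD mice 1 to 3, against 39 and 19 UMIs in LFD mice 1 and 2. Its level was 0, 18.3 and 137 CPM in HFD mice, against 87.3 and 61.5 CPM in LFD mice. HFD mouse 2 was below both LFD mice and HFD mouse 3 above both, so the groups overlapped. By counting error alone, Dbp in HFD mouse 2 was 0.209 times that in LFD mouse 1 (interval 0.0998 to 0.408) and 0.297 times that in LFD mouse 2 (0.132 to 0.645). Within the HFD group, HFD mouse 3 had 7.49 times the Dbp level of HFD mouse 2 (2.66 to 19.9), a wider gap than any between an HFD and an LFD mouse with Dbp UMIs. The zero in HFD mouse 1 allows up to 107.5 CPM, above the level in both LFD mice. The group means were 51.7 ± 74.3 CPM in HFD (SD, n = 3) and 74.4 ± 18.2 CPM in LFD (SD, n = 2).

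Tef followed the same order over mice, with 0, 19 and 6 UMIs in HFD mice 1 to 3, against 38 and 16 UMIs in LFD mice 1 and 2. That is 0, 28.9 and 103 CPM in HFD mice, against 85.0 and 51.8 CPM in LFD mice, and the groups overlapped. HFD mouse 2 had 0.340 times the Tef level of LFD mouse 1 (0.185 to 0.605), HFD mouse 3 had 3.55 times that of HFD mouse 2 (1.16 to 9.24), and HFD mouse 2 and LFD mouse 2 were not told apart (0.559 times, 0.272 to 1.16).

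Hlf differed from its relatives in HFD mouse 2. It had 0, 38 and 4 UMIs in HFD mice 1 to 3, against 7 and 10 UMIs in LFD mice 1 and 2, or 0, 57.9 and 68.4 CPM in HFD mice against 15.7 and 32.4 CPM in LFD mice. HFD mice 2 and 3 were above both LFD mice, and HFD mouse 1, at 0, was below them within its limit of 107.5 CPM. The level in HFD mouse 2 was 3.69 times that in LFD mouse 1 (1.63 to 9.80) and 1.79 times that in LFD mouse 2 (0.874 to 4.02).

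The make-up of the PAR bZIP UMIs does not depend on how a library is scaled. Hlf gave 55.1% of the 69 PAR bZIP UMIs in HFD mouse 2 (42.6 to 67.1%) and 22.2% of 18 in HFD mouse 3 (6.41 to 47.6%), against 8.33% of 84 in LFD mouse 1 (3.42 to 16.4%) and 22.2% of 45 in LFD mouse 2 (11.2 to 37.1%). Dbp gave 17.4% in HFD mouse 2 and 44.4% in HFD mouse 3, against 46.4% in LFD mouse 1 and 42.2% in LFD mouse 2. HFD mouse 2 alone had more Hlf than Dbp and Tef together, while the intervals of HFD mouse 3 held the shares of both LFD mice. HFD mouse 1 had no PAR bZIP UMI and gives no share.

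**Figure D2:**
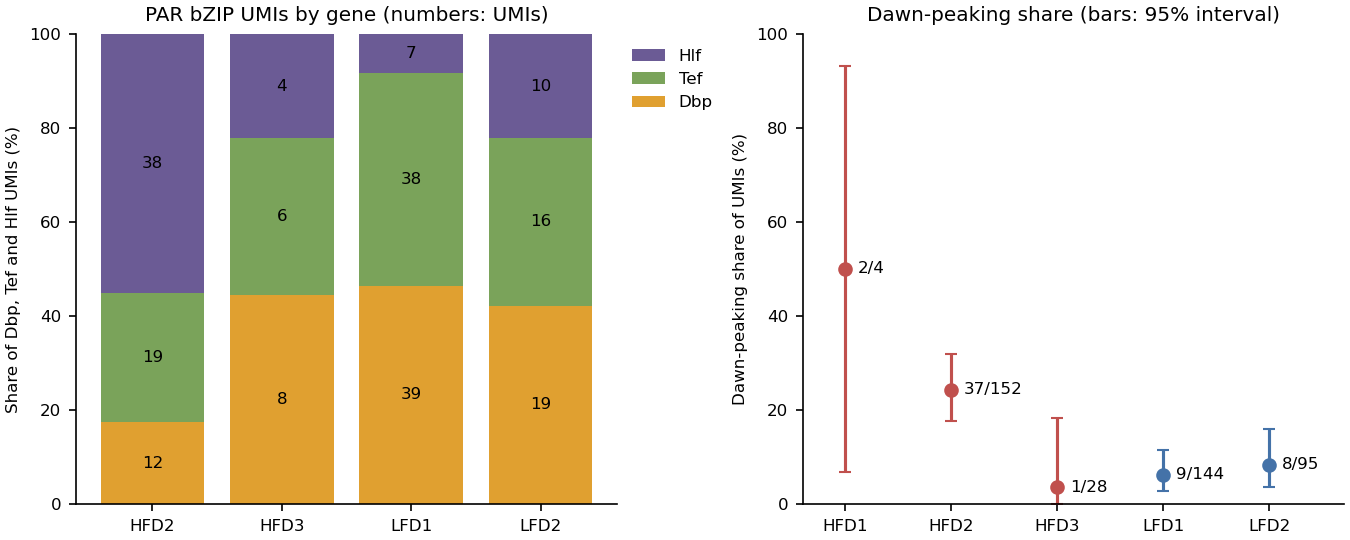
Left, share of Dbp, Tef and Hlf in their summed UMIs per mouse (percent, UMI counts inside bars; HFD mouse 1 had none). Right, share of UMIs of dawn-peaking genes in those of dawn-peaking and light-phase genes (percent, HFD red left of LFD blue, bars are exact 95% binomial intervals, labels are UMIs over total); HFD mouse 2 is at 24.3%, above HFD mouse 3 and both LFD mice, and HFD mouse 1 rests on 4 UMIs.

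The PER repressors were sparse. Per1, which in liver also responds to glucocorticoids, had 2, 2 and 1 UMIs in HFD mice 1 to 3, against 4 and 8 UMIs in LFD mice 1 and 2, or 71.7, 3.05 and 17.1 CPM against 8.95 and 25.9 CPM. Per2 had 0, 4 and 3 UMIs in HFD mice, against 2 and 2 UMIs in LFD mice, or 0, 6.09 and 51.3 CPM against 4.48 and 6.47 CPM. Per3 had 1, 6 and 3 UMIs in HFD mice, against 4 and 4 UMIs in LFD mice, or 35.8, 9.14 and 51.3 CPM against 8.95 and 12.9 CPM. All 3 had overlapping groups, and their highest level in each case was in HFD mouse 1 or 3, where it rested on 2 or 3 UMIs. In HFD mouse 2, the deepest library, Per1 was 0.118 times its level in LFD mouse 2 (0.0122 to 0.589), whereas against LFD mouse 1 the interval held 1 (0.340 times, 0.0308 to 2.37).

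The REV-ERB repressors of Arntl had more UMIs in total than the PER genes, although Nr1d1 averaged 14.3 CPM over mice, below Per1 (25.3) and Per3 (23.6). Those PER averages rest largely on HFD mice 1 and 3, where each gene had 1 to 3 UMIs. In HFD mouse 2 and LFD mouse 1, Nr1d1 was above Per1 (3.05 and 8.95 CPM) and Per3 (9.14 and 8.95 CPM). In LFD mouse 2, Nr1d1 and Per1 were both at 25.9 CPM and Per3 was at 12.9 CPM. Nr1d1 had 0, 11 and 0 UMIs in HFD mice 1 to 3, against 13 and 8 UMIs in LFD mice 1 and 2, or 0, 16.7 and 0 CPM against 29.1 and 25.9 CPM. It was the 1 member of 10 whose groups did not overlap, lower in HFD. Of the 3614 genes tested, 14.3% showed that pattern. Nr1d1 was not among them, since it did not pass the expression filter for testing. The exact two-sided permutation test gave p = 0.2. That is the smallest value of the form used, which doubles the one-sided p over 10 splits. The zeros of HFD mice 1 and 3 allow 107.5 and 51.3 CPM, above both LFD levels, and HFD mouse 2 was 0.576 times LFD mouse 1 (0.234 to 1.39), so a difference was not detectable at this depth. Thra, whose exons overlap those of Nr1d1, had 0, 10 and 0 UMIs in HFD mice, against 0 and 4 UMIs in LFD mice. Nr1d2 had 0, 19 and 4 UMIs in HFD mice, against 13 and 14 UMIs in LFD mice, or 0, 28.9 and 68.4 CPM against 29.1 and 45.3 CPM. Its groups overlapped, and HFD mouse 2 and LFD mouse 1 were nearly level (0.994 times, 0.466 to 2.19).

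Arntl, the activator, had 0, 7 and 0 UMIs in HFD mice 1 to 3, against 1 and 0 UMIs in LFD mice 1 and 2, or 0, 10.7 and 0 CPM against 2.24 and 0 CPM. Of the 7 UMIs in HFD mouse 2, 6 came from 1 cell of 6311 UMIs and 1032 genes, and 1 from another cell. An even spread by cell depth would have put them in 6.80 cells, and they were in 2. Ciart had a single UMI, in LFD mouse 1, and its zero in HFD mouse 2 allows 4.57 CPM. Exact two-sided permutation tests of the members under the expression filter gave p = 1 for Per1, Per2 and Arntl and p = 0.8 for Ciart.

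Arntl and the genes that peak with it near dawn (Clock, Npas2, Nfil3 and Cry1) were set against 10 genes that peak in the light phase: Dbp, Tef, Hlf, Nr1d1, Nr1d2, Per3, Ciart, Usp2, Tspan4 and Bhlhe41. Dawn genes gave 37 of 152 UMIs in HFD mouse 2, or 24.3% (17.8 to 32.0%), and 1 of 28 in HFD mouse 3, or 3.57% (0.0904 to 18.3%). LFD mice 1 and 2 had 6.25% (9 of 144, 2.90 to 11.5%) and 8.42% (8 of 95, 3.71 to 15.9%). HFD mouse 1 had 2 of 4 UMIs, which is too few to place it. Without the cell that held 6 Arntl UMIs the share in HFD mouse 2 was 21.2% (14.9 to 28.8%). Without Arntl altogether it was 20.7% (14.4 to 28.2%). Cry1, a repressor that peaks late, had 1, 10 and 0 UMIs in HFD mice 1 to 3, against 0 and 0 UMIs in LFD mice. The Cry1 zero in HFD mouse 3 allows 51.3 CPM, above the 15.2 CPM of HFD mouse 2. The dawn share was higher in HFD mouse 2 than in HFD mouse 3, of the same diet, but their intervals overlapped. With all cells and genes, the interval of HFD mouse 2 lay above those of both LFD mice. Without that cell, or without Arntl, it overlapped that of LFD mouse 2. These phases are from general knowledge of mouse liver and the lists were chosen with earlier results known, so the shares are a description.

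The diets were compared over mice by limma voom, fitted to the sum of UMIs of each mouse, with Benjamini-Hochberg adjustment over all genes past the filter. Dbp, Tef, Hlf, Per3 and Nr1d2 passed the filter, and 0 of these 5 were called at adjusted p under 0.05 or reached an unadjusted p of 0.05. Of all 3614 genes tested, 8 were called (0.221%) and 187 had an unadjusted p under 0.05. The log2 fold change (HFD over LFD) was -1.46 for Dbp (SE 0.68, adjusted p = 0.929, limma) and 1.10 for Hlf (SE 0.65, adjusted p = 0.985, limma). It was -0.98 for Tef (SE 0.63), 0.65 for Per3 (SE 0.79) and -0.23 for Nr1d2 (SE 0.60).

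Without HFD mouse 1, whose 5 cells held 2 Per1 and 1 Per3 UMIs and none of the other members, 123 of 3670 genes were called (3.35%), 47 higher (1.28%) and 76 lower (2.07%) in HFD. Dbp was then called lower in HFD (log2 fold change -1.86, SE 0.38, adjusted p = 0.0113, limma), 1 of the 4 members tested. This call stands beside overlapping groups, since Dbp in HFD mouse 3 (137 CPM, 8 UMIs) exceeded both LFD mice, though by counting error it could not be told from LFD mouse 1 (1.57 times, 0.633 to 3.40) or LFD mouse 2 (2.23 times, 0.843 to 5.32), and voom gives the deeper library of HFD mouse 2 more weight. Without HFD mouse 2 in place of mouse 1, the Dbp fold change was -0.46 (SE 0.89), and without HFD mouse 3 it was -2.03 (SE 0.57, adjusted p = 0.786, limma). Hlf without HFD mouse 1 was at 1.51 (SE 0.43, adjusted p = 0.0667, limma), with groups that no longer overlapped, as for 20.6% of genes in that direction. Tef was at -1.13 (SE 0.36, adjusted p = 0.110, limma) and Nr1d2 at -0.22 (SE 0.38, adjusted p = 0.820, limma). Without HFD mouse 3, Hlf was at 0.37 (SE 0.83) and Tef at -1.60 (SE 0.62).

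**Figure D3:**
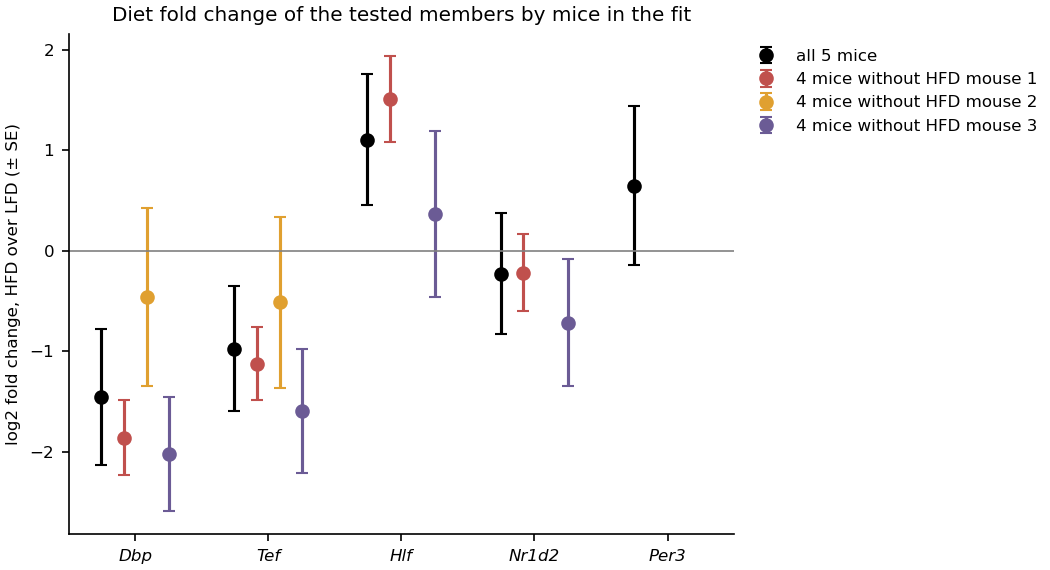
Log2 fold change, HFD over LFD, of the members that passed the filter in each limma voom fit, with bars of 1 SE and colours for the mice in the fit. Dbp moves between -2.03 and -0.46 according to which HFD mouse is left out, and a missing point means that the member did not pass the filter in that fit.

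Other measures are given beside these levels. The immediate early and stress genes, a list of 22 that includes Fos, Jun and heat shock genes and responds to cell isolation, summed to 3584, 1497 and 1693 CPM in HFD mice 1 to 3, against 893 and 951 CPM in LFD mice 1 and 2. Of its 14 genes tested, 0 were called and 1 had an unadjusted p under 0.05 (limma voom), and 13 had a fold change above 0, against 1632 of 3614 genes overall. The heat shock gene Hspa8 gave 71 of the list's 100 UMIs in HFD mouse 1, where Jun had 2 UMIs and Fos and Egr1 had 0. Without HFD mouse 1, Jun (1.31, SE 0.22, adjusted p = 0.00296, limma) and Dusp1 (2.42, SE 0.40, adjusted p = 0.00240, limma) were called higher in HFD, in the same fit that called Dbp. Erythroid markers (4 genes) were at 502, 13.7 and 291 CPM in HFD mice, against 6.71 and 3.24 CPM in LFD mice. The part of these differences in the members' levels was not tested. Lists for cues that act on the liver clock overlapped between diets: glucocorticoid-responsive genes (12, Per1 among them) ranged over 2054 to 2975 CPM in HFD mice and 2303 to 3171 CPM in LFD mice. Fasting genes (12) ranged over 2186 to 3079 CPM in HFD and 2618 to 3074 CPM in LFD, and feeding genes (10) over 2007 to 2805 CPM in HFD and 2637 to 2746 CPM in LFD. Temperature-responsive genes (8, mostly heat shock genes) were at 3906 CPM in HFD mouse 1 and at 804 to 1060 CPM in HFD mice 2 and 3, against 768 to 1016 CPM in LFD mice. The same 71 Hspa8 UMIs were among the 109 UMIs of this list in HFD mouse 1. Hspa8, Hspa1a and Hspa1b are in both this list and that of stress genes.

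Of the other core clock genes and their modifiers, 17 of 18 were in the table, 2 were tested and 0 were called, with no unadjusted p under 0.05 (limma voom). The 3 with the highest mean CPM over mice were Rora, the activator at ROR elements, Bhlhe40, an E-box repressor, and Csnk1d, a kinase of PER proteins. Rora had 1, 68 and 3 UMIs in HFD mice 1 to 3, against 43 and 24 UMIs in LFD mice 1 and 2, with a log2 fold change of -0.15. Bhlhe40 had 0, 56 and 5 UMIs in HFD mice, against 30 and 35 UMIs in LFD mice, with a log2 fold change of -0.38. Both signs turned without HFD mouse 1 (Rora 0.19, Bhlhe40 0.023), and Rora's also without LFD mouse 1 (0.17). Csnk1d, not tested in the fit of 5 mice, had 0, 14 and 3 UMIs in HFD mice, against 12 and 6 UMIs in LFD mice. Without HFD mouse 1 its log2 fold change was -0.12 (SE 0.44, adjusted p = 0.927, limma), and 0 of 3 genes tested were called.

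Of clock-driven liver output genes, 29 of 30 were in the table, 18 were tested, 2 had an unadjusted p under 0.05 and 0 were called (limma voom). Their median log2 fold change was -0.22, against -0.06 over all genes tested. The 3 with the highest mean CPM over mice were Leap2, which encodes a secreted peptide that antagonises the ghrelin receptor (1.25, SE 0.38, adjusted p = 0.477, limma), Upp2, a uridine phosphorylase (-1.91, SE 0.80, adjusted p = 0.929, limma), and Tars, a threonyl-tRNA synthetase (1.13, SE 0.65). Upp2 and Tars stand there through 788 and 753 CPM in HFD mouse 1. Without HFD mouse 1, 3 of 18 were called by limma, against 3.35% of all genes in that fit. Leap2 was higher in HFD (1.25, SE 0.23, adjusted p = 0.00463, limma), with 682 and 770 CPM in HFD mice 2 and 3, against 376 and 217 CPM in LFD mice 1 and 2. Upp2 was lower (-3.22, SE 0.31, adjusted p = 1.01e-05, limma), with 28.9 and 120 CPM in HFD mice 2 and 3, against 273 and 333 CPM in LFD mice. Alas1, the first enzyme of haem synthesis and a known target of the PAR bZIP factors, was lower (-1.82, SE 0.43, adjusted p = 0.0249, limma), with 57.9 and 325 CPM in HFD mice 2 and 3, against 177 and 421 CPM in LFD mice, so its groups overlapped as those of Dbp did. Without HFD mouse 2, the log2 fold changes were 0.052 for Upp2 and 0.028 for Alas1. In HFD mouse 1, Upp2 lay above both LFD mice, from 22 UMIs in 5 cells.

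The share of cells with a UMI was taken per mouse. Dbp was detected in 5.29% of cells of HFD mouse 2 (2.67 to 9.27%) and 24.0% of HFD mouse 3 (9.36 to 45.1%), against 26.5% of LFD mouse 1 (19.2 to 34.9%) and 19.0% of LFD mouse 2 (11.3 to 29.1%). In HFD mouse 1 it was in 0 of 5 cells, which allows a share of up to 60.0% by the limit of 3 counts, or 52.2% by the exact interval. Tef was in 9.13 and 20.0% of cells of HFD mice 2 and 3, against 24.2 and 16.7% in LFD mice 1 and 2. Hlf was in 14.9 and 12.0% of cells of HFD mice 2 and 3, against 5.30 and 11.9% in LFD mice 1 and 2. In HFD mouse 2 more cells thus had Hlf than Dbp, and in LFD mouse 1 the reverse held. Arntl, Per1 and Per2 were each in under 10% of cells of HFD mouse 2 and of both LFD mice. No other cell type is in the table to give the share that free RNA alone would produce.

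Cells of HFD mouse 2 had fewer UMIs (median 2182) than those of LFD mice 1 and 2 (2734 and 3076), so each cell was thinned to 1728 UMIs, which left out 0, 74 and 11 cells in HFD mice 1 to 3, against 18 and 10 cells in LFD mice. Thinned, Dbp was in 2.70 and 18.9% of cells of HFD mice 2 and 3, against 15.7 and 9.59% in LFD mice 1 and 2. Hlf was in 11.2 and 7.70% of thinned cells of HFD mice 2 and 3, against 1.57 and 4.40% in LFD mice. The order of the mice for Dbp was that of its levels, whereas the Hlf share was higher in HFD mouse 2 than in HFD mouse 3. That Hlf order is within counting error. Unthinned, Hlf was in 3 cells of HFD mouse 3, with an interval of 2.55 to 31.2%, against 10.4 to 20.5% in HFD mouse 2. Over all mice, the thinned share of Dbp-positive cells averaged 7.21 ± 10.2% in HFD (SD, n = 3) and 12.7 ± 4.33% in LFD (SD, n = 2), with an exact permutation p = 0.6. Without HFD mouse 1 the HFD mean was 10.8%. Thinned shares of Nr1d1 were 0, 3.77 and 0% in HFD mice 1 to 3, against 4.74 and 3.88% in LFD mice. Those of Nr1d2 were 0, 4.90 and 4.51% in HFD, against 5.92 and 8.13% in LFD. At this depth, with 14 cells left in HFD mouse 3, neither overlapped between diets. The exact permutation test gave p = 0.2 for each, the smallest that test gives. The share of all genes doing so was not counted, so this is not a result about the members. Thinned to 1000 UMIs, Nr1d2 overlapped, with 6.65% in HFD mouse 3, against 3.00 and 4.20% in LFD mice 1 and 2. Unthinned, Nr1d2 overlapped (16.0% in HFD mouse 3, against 9.09 and 16.7% in LFD mice). The thinned share with any member was 19.8, 28.4 and 36.6% in HFD mice 1 to 3, against 36.1 and 34.9% in LFD mice.

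Among cells, detection was thin. Of 317 values at 1 UMI or more, 289 were a single UMI. The members were all at 0 in 245 of 454 cells, 1 member was seen in 136 cells, and 6 members were seen in 1 cell. Dbp was in 11 cells of HFD mouse 2 and 35 of LFD mouse 1, against 11.4 and 32.1 cells if its UMIs had fallen evenly by cell depth. Hlf was in 31 cells of HFD mouse 2 and 7 of LFD mouse 1, against 32.9 and 6.74 cells on the same basis. Dbp and Tef were found together in 20 cells, against 16.3 if spread evenly, Dbp and Nr1d1 in 11 against 6.75, and Tef and Hlf in 8 against 9.33. Tef and Nr1d2 were together in 14 cells against 9.82, Tef and Nr1d1 in 11 against 6.90, and Tef and Per1 in 8 against 3.46. Dbp and Nr1d2 were together in 8 cells against 9.75, Tef and Arntl in 0 against 1.25, and Hlf and Arntl in 0 against 1.74. The pairs named are examples, and other pairs lay on both sides of an even spread. These pairs of counts are small and are given as a description.

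The side of the liver lobule was a source of variation that the choice of members did not use. Cells of each mouse were ranked by their pericentral over periportal marker UMIs and split at the median, and the sides were compared in limma voom with mouse as a block. Of 2755 genes tested outside the marker lists, 15 were called (0.544%), and 0 of the 3 members tested, with none at an unadjusted p under 0.05. The log2 fold change, pericentral over periportal, was -0.55 for Dbp (SE 0.42), -0.12 for Tef (SE 0.33) and 0.11 for Hlf (SE 0.36). The pericentral side held 39.7% of Dbp UMIs (28.8 to 51.5%), 44.3% of Tef UMIs (33.1 to 55.9%), 61.0% of Hlf UMIs (47.4 to 73.5%) and 65.6% of Nr1d1 UMIs (46.8 to 81.4%), against 48.6% of all UMIs. Each of these pooled intervals held that share. Pooling ignores the mouse, though: the pericentral share of all UMIs ran from 41.9% in LFD mouse 1 to 60.5% in HFD mouse 1. The mice also gave unequal parts of each member's UMIs, so 48.6% is a rough reference. Within HFD mouse 2, which gave 38 of the 59 Hlf UMIs, 71.1% of Hlf UMIs were pericentral (54.1 to 84.6%), against 53.8% of all its UMIs, just outside the interval. In LFD mice 1 and 2 the Hlf shares were 42.9% (9.90 to 81.6%) and 40.0% (12.2 to 73.8%). Every member was looked at in every mouse. The intervals of Dbp in HFD mouse 3 (12.5%, 0.316 to 52.65%, against 52.70%) and Arntl in HFD mouse 2 (100%, 59.0 to 100%) also left out their mouse's share. Of those 7 Arntl UMIs, 6 came from 1 cell. Hlf without HFD mouse 1 was at 0.44 (SE 0.39, adjusted p = 0.621, limma). Without HFD mouse 1, 189 of 2670 genes were called (7.08%) and 0 of 4 members (limma).

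The genes whose levels over the 5 mice lay nearest those of Tef, the member with most UMIs, were sought among 3609 genes that passed the filter, by the root mean square difference of centred log2(CPM + 10). They were Banf1 (0.148), Igfals (0.157), Phf20l1 (0.198), Egln2 (0.209) and Narf (0.231). Banf1, for example, had 0, 19 and 8 UMIs in HFD mice 1 to 3, against 45 and 17 UMIs in LFD mice 1 and 2, beside 0, 19 and 6 UMIs in HFD mice and 38 and 16 UMIs in LFD mice for Tef. All 5 were at 0 UMIs in HFD mouse 1.

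The second deposited table, named for MAGIC, which shares values between cells of like profile, gave another picture of the same genes. There the mean value of Dbp on the natural log scale was 0.206, 0.207 and 0.211 in HFD mice 1 to 3, against 0.229 and 0.229 in LFD mice 1 and 2. In the unsmoothed table it was 0, 0.0712 and 0.428 in HFD mice, against 0.354 and 0.252 in LFD mice. The range of Dbp over mice was thus 0.0229 smoothed and 0.428 unsmoothed, and HFD mouse 3, highest of all mice unsmoothed, joined the other HFD mice below the LFD mice once smoothed. All 10 members had groups of mice that did not overlap in the smoothed table, against 1 (Nr1d1) in the unsmoothed, while over the genes tested the shares were 86.1% smoothed and 27.1% unsmoothed. Per1 and Per3 changed direction: the HFD minus LFD difference of means was -0.00495 and -0.00285 smoothed, against 0.0386 and 0.124 unsmoothed. Smoothed values were above 0 in 100% of cells for 9 members and in 95.4% of cells for Ciart, of which the unsmoothed table held 1 UMI. The smoothed values of different mice are not independent measurements, and no test was made on them.

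**Figure D4:**
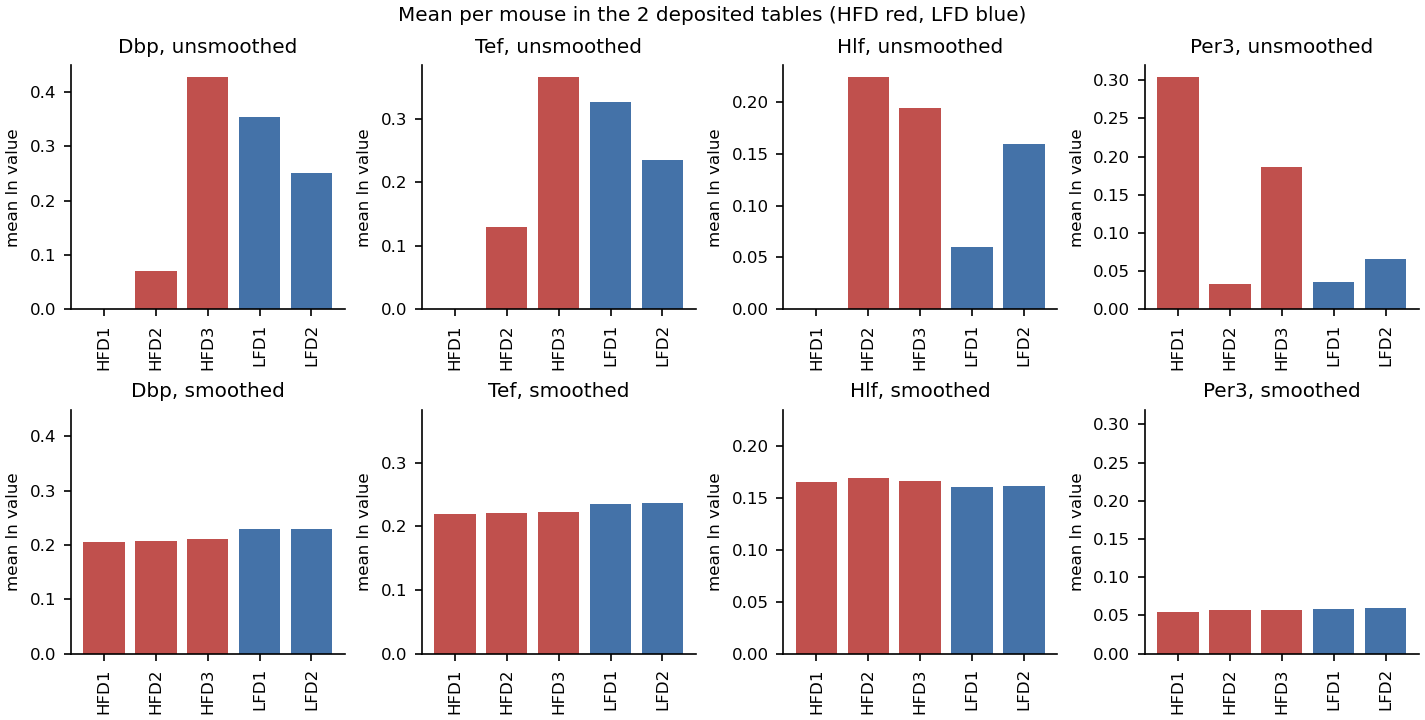
Mean value per mouse of Dbp, Tef, Hlf and Per3 on the natural log scale in the unsmoothed table (top) and the smoothed table (bottom), HFD mice in red left of LFD mice in blue. The range of Dbp over mice is 0.428 unsmoothed and 0.0229 smoothed.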

How the data were processed

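Drop-seq profiles of hepatocytes from 3 HFD and 2 LFD mice were analysed. The submitters' processing notes name STAR 2.6.0a and build mm10. The sources used here do not give the cell filter, annotation, or handling of strand and doublets. The deposited main table holds the natural log of 1 plus UMIs per 10000 UMIs of a cell, by its values, and the second deposited table, named for MAGIC, was read as the same natural log scale, smoothed. Whole UMIs were recovered for 100% of values above 0 (tolerance 0.001) and summed per mouse, in place of a test on deposited counts. Cells were assigned by column prefix, 0 columns were left out and no doublet caller was run.

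Genes needed 32.4 CPM (10 UMIs at the median library) in 2 or more mice, and a total of 15 UMIs. The fits used limma 3.58.1 voom (R 4.3.3) with trimmed-mean scaling, checked on simulated data. Exact permutation tests, 10 splits, used SciPy 1.17.1. Thinned shares are expected shares over all draws of 1728 UMIs (25th percentile of cells). Alternatives changed scaling, filter, pseudocount, test, mice and cells. All members were named, with every listed clock gene past the threshold or else the 3 of highest mean CPM, and 5 genes nearest Tef. The members and gene lists were chosen with earlier results of these data known. The naming rule was applied again in the fit of 4 mice.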

Additional observations from a re-analysis of the deposited data

How the results depend on the processing

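No member was called in all 5 mice (limma voom), and the number called ranged from 0 to 1 when each mouse was left out, the 1 being Dbp without HFD mouse 1. Other clock genes gave 0 to 3 calls, and all genes 0 to 123, when each mouse was left out; where 1 LFD mouse was left, it was assumed to vary like the others. Against 8 genes called, 2 were called with no filter, 0 with at least 50 UMIs (123 at unadjusted p under 0.05), 0 in limma-trend on log2(CPM + 10) (66) or log2(CPM + 1) (46), 14 on means of the deposited log values, 23 with the replicate block and 2 without the 5% of cells with most UMIs. The numbers 1 and 2 that the mice of both diets carry were not taken to pair them. Correlations of their deviations from the group mean were 0.03 and 0.07 over 3614 genes. These cannot decide whether the mice were paired, since deviations of 2 LFD mice mirror each other and HFD mouse 1 had 5 cells. In the log2 fits run for each, Dbp lay between -2.47 and -0.46 (14 alternatives with the log-mean one) and Tef between -2.25 and -0.52 (13; Tef was not tested without LFD mouse 1). As differences of mean natural log values they were -0.14 and -0.12. Dbp had adjusted p from 0.0113 to 0.9996. Hlf turned to -0.61 on log2(CPM + 1), where the median of all genes was -0.50 (-0.06 in the main fit). With each mouse left out in turn, Rora ranged from -0.55 to 0.19 (0.17 without LFD mouse 1), Bhlhe40 from -1.23 to 0.023, Upp2 from -3.22 to 0.052 and Alas1 from -1.89 to 0.028; the first 2 turned without HFD mouse 1 and the last 2 without HFD mouse 2. Tef on the lobule axis was 0.20 when only the cells at both ends of the axis were kept. The causes were not tested. The share of cells with any member differed by -7.22 percentage points (HFD minus LFD) and by -11.4 to -1.34 under the alternatives. Depth limits these results, with 5 cells in HFD mouse 1 and 25 in HFD mouse 3.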
